A study of Homo sapiens with 12 samples.

Results

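The genes CSF1, CSF2, CSF3, KITLG and LIF, which encode secreted or membrane-bound growth factors of blood cells, were followed across Cal27 cells, an established line grown from a squamous carcinoma of a patient's tongue. They were taken by symbol from the count table, where they made up 5 of 25382 symbols, and all 5 passed the filter on low counts that left 15437 genes for testing. The set was chosen by measured values, the fold changes and calls of CSF2, CSF1 and KITLG in the contrast of stiff-to-soft with soft-to-soft cells, so that contrast is given for all 5 genes as values with no test. RNA sequencing covered 12 libraries of wild-type cells on collagen-coated polyacrylamide gels, in 4 conditions of 3 libraries, with 5 days of conditioning and 1 day after replating. Soft-to-soft cells were on gels of 0.48 kPa throughout, and stiff-to-soft cells were conditioned at 20 kPa and then moved to 0.48 kPa. For LPA-to-soft the conditioning gel was soft and lysophosphatidic acid (LPA), a signalling lipid with G protein-coupled receptors, was added, and the lipid was left out at replating on soft gels. LPA-to-FAKi added to this scheme an inhibitor (FAKi) of FAK, or focal adhesion kinase, the tyrosine kinase at integrin contacts, after replating on soft gels. The design text sorts stiff-to-soft and LPA-to-soft as conditions that learned, and soft-to-soft and LPA-to-FAKi as conditions that did not learn or forgot. All results come from 1 cell line, and the labels do not say whether replicates were separate cultures, and each p-value here reflects the spread among libraries, which may be technical.

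Macrophage colony-stimulating factor (CSF1), granulocyte-macrophage colony-stimulating factor (CSF2, also called GM-CSF) and granulocyte colony-stimulating factor (CSF3) drive the growth and maturation of myeloid cells. Stem cell factor (KITLG) acts on stem cells, mast cells and melanocytes through the receptor kinase KIT, and keratinocytes are a known source of it. LIF is a cytokine of the interleukin-6 family that signals through LIFR and the shared chain IL6ST to JAK kinases and STAT3. Carcinoma cells can secrete these factors, and colony-stimulating factors from tumours are known for recruiting myeloid cells.

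The RefSeq promoter table (GRCh38.p14) matched 2 of the 5 genes, CSF2 and KITLG, which are also the pair whose stiff-to-soft and soft-to-soft libraries did not overlap. The 250 bases before each start site are shown because these genes ranked the conditions in opposite orders. The CSF2 stretch lies at chr5:132073539-132073788 on the plus strand and the KITLG stretch at chr12:88580472-88580721 on the minus strand. Capitals mark matches to the motifs searched.
CSF2: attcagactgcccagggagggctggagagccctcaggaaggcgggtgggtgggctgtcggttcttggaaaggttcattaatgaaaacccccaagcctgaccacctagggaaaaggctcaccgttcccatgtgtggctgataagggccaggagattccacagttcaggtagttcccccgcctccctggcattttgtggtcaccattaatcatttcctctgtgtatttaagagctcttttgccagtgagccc
KITLG: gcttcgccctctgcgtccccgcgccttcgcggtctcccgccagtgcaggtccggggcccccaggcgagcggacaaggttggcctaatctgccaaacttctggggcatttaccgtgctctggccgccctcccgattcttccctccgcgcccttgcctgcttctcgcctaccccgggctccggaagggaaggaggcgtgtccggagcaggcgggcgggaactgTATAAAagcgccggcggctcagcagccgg
Both strands were searched for the AP-1 motif TGANTCA, the TEAD motif CATTCC, the TATA box TATAAA, the kappa B consensus and the CArG box. The KITLG stretch held 1 match, a TATA box from 29 to 24 bases before the start site, and the CSF2 stretch held 0. Over 35116 promoters of the same length, 10.7% held TATAAA, 6.57% the AP-1 motif, 11.9% the TEAD motif, 28.9% the kappa B consensus and 1.16% the CArG box. GC content was 69.2% for KITLG and 54.0% for CSF2. A match is a description of letters, and a motif with no match says only that those letters are not in this window.

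Total counts ran from 62953957 to 122311183 per library. Soft-to-soft replicates 1 and 2 stood apart: of counts from 1 to 19, 42.9% and 42.2% were even, against 96.8% to 97.8% in the other 10 libraries, so results that rest on them are given with and without them. Libraries with the same replicate number deviated from their condition means together, and a fit with the number as a block was therefore set beside the main fit without it. The cells carried the epithelial label in their RNA, with the 9 epithelial markers summing to between 5979 and 13696 CPM (counts relative to the library total, TMM scaled) per library. The 10 leukocyte markers summed to between 17.3 and 48.6 CPM, with CD3E and TYROBP at 0 counts in every library and PTPRC at 6 counts or fewer. Of the 10, 5 passed the low-count filter, among them CD68 (9.49 to 41.9 CPM), CD14 (up to 5.43 CPM) and CD34 (up to 7.57 CPM). Lists of fibroblast and endothelial markers also held measured genes, such as COL1A1 (12.7 to 30.9 CPM) and CDH5 (up to 36.3 CPM). Which cells held these RNAs was not tested. In bulk RNA, fewer cells making a factor and less RNA per cell cannot be told apart.

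Per kilobase of exon, with exon lengths taken from GENCODE 29, CSF2 and LIF had the highest levels and CSF3 the lowest. The median over the 12 libraries was 31.5 CPM per kilobase for CSF2, 28.3 for LIF, 19.0 for CSF1, 2.69 for KITLG and 1.37 for CSF3. The ranges of CSF2 (14.6 to 86.8), LIF (23.5 to 32.8) and CSF1 (8.48 to 33.7) overlapped one another, and those of KITLG (1.83 to 4.16) and CSF3 (0.272 to 2.08) overlapped each other but lay below the other 3. From the lowest to the highest library, levels spanned 5.93-fold for CSF2, 3.98-fold for CSF1, 7.64-fold for CSF3, 2.27-fold for KITLG and 1.40-fold for LIF.

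CSF2 was lowest in cells that stayed on soft gels without LPA. Soft-to-soft libraries 1, 2 and 3 held 11.5, 23.5 and 12.8 CPM, and LPA-to-soft libraries held 17.6, 36.0 and 16.4 CPM. LPA-to-FAKi libraries held 30.3, 58.7 and 21.4 CPM, and stiff-to-soft libraries held 26.2, 68.3 and 30.3 CPM. Within every replicate number soft-to-soft was the lowest condition and LPA-to-soft the second lowest, whereas the top place went to LPA-to-FAKi in number 1 and to stiff-to-soft in numbers 2 and 3. The stiff-to-soft level was 0.865, 1.16 and 1.41 times the LPA-to-FAKi level in numbers 1, 2 and 3, so the order of these neighbours was not the same in all numbers, and their difference was not tested. Mean CSF2 was 15.9 ± 6.55 CPM for soft-to-soft, 23.3 ± 11.0 CPM for LPA-to-soft, 36.8 ± 19.5 CPM for LPA-to-FAKi and 41.6 ± 23.2 CPM for stiff-to-soft (SD, n = 3), with SDs that hold the large step between replicate numbers.

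**Figure D1:**
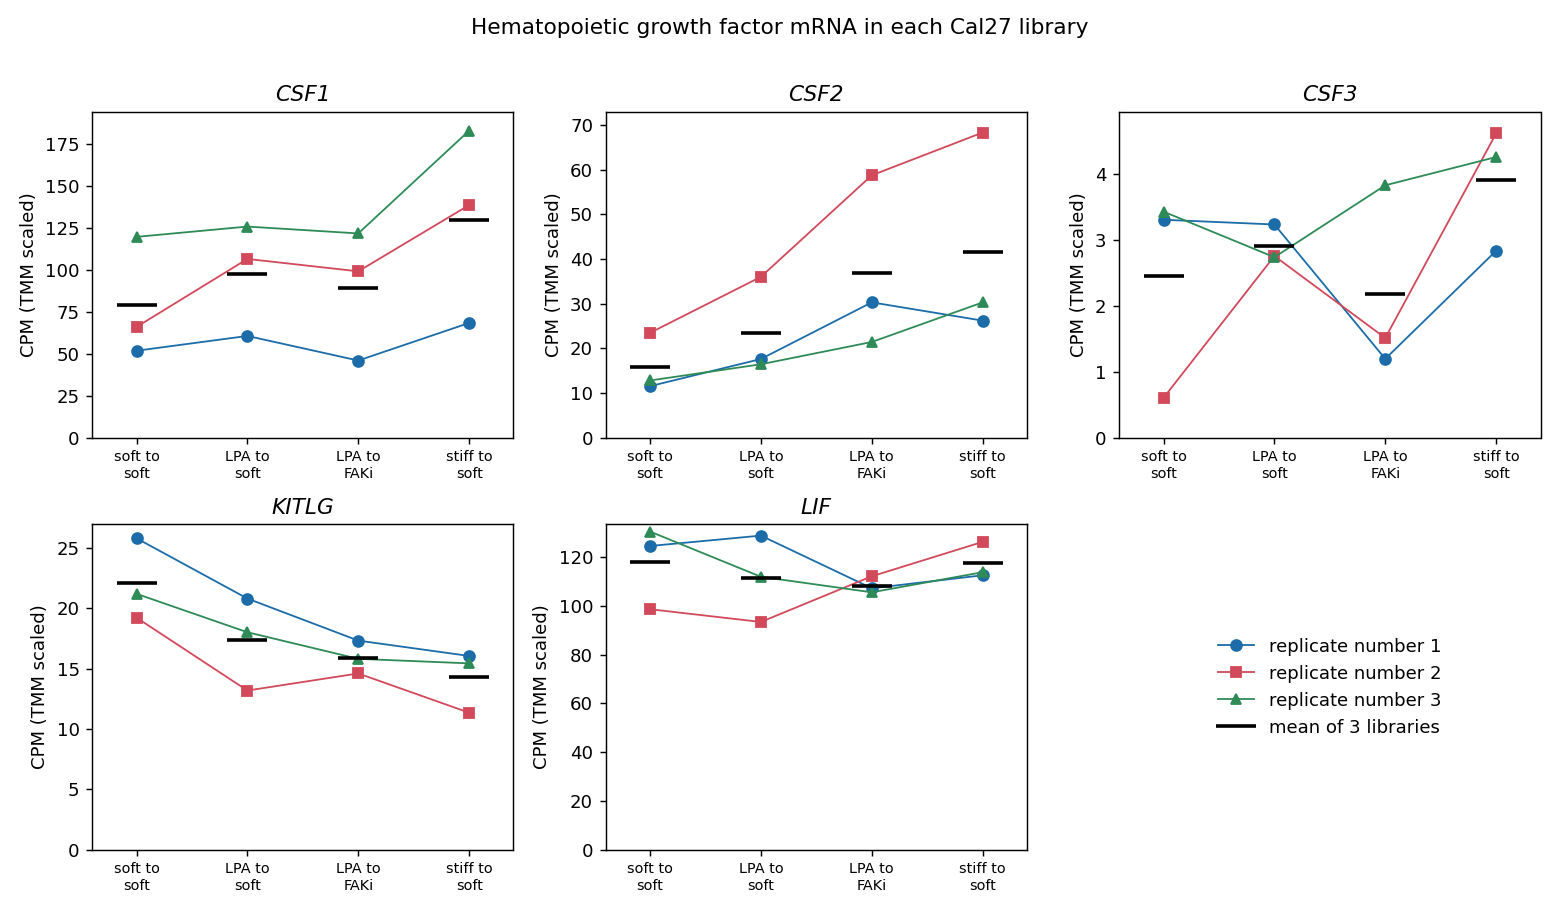
CPM (TMM scaled, axis from 0) of each growth factor gene in the 12 Cal27 libraries, by condition. Lines join libraries of the same replicate number and black dashes are means of 3 libraries; the CSF2 lines start lowest in soft-to-soft and the KITLG lines start highest there.

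KITLG ran the other way and by less. Its soft-to-soft libraries held 25.8, 19.2 and 21.2 CPM, and its LPA-to-soft libraries 20.8, 13.2 and 18.0 CPM. LPA-to-FAKi libraries held 17.3, 14.6 and 15.8 CPM, and stiff-to-soft libraries 16.1, 11.4 and 15.4 CPM. Soft-to-soft was the highest and stiff-to-soft the lowest condition in all 3 numbers, while LPA-to-soft and LPA-to-FAKi changed places in number 2. Every LPA-to-FAKi and every stiff-to-soft library lay below every soft-to-soft library, and LPA-to-soft overlapped soft-to-soft.

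CSF1, the macrophage factor, was highest in stiff-to-soft and second highest in LPA-to-soft within all 3 numbers. Soft-to-soft libraries held 51.8, 65.9 and 119.6 CPM and LPA-to-FAKi libraries 45.9, 99.0 and 121.6 CPM. LPA-to-soft libraries held 60.6, 106.4 and 125.7 CPM and stiff-to-soft libraries 68.3, 138.5 and 182.8 CPM. The lower conditions changed places in number 1. Number 1 was the lowest in every condition, and all conditions overlapped.

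CSF3, the granulocyte factor, and LIF showed no fixed order. CSF3 was at 3.31, 0.604 and 3.43 CPM in soft-to-soft, while LPA-to-soft held 3.23, 2.76 and 2.74 CPM. LPA-to-FAKi held 1.20, 1.51 and 3.83 CPM of CSF3, and stiff-to-soft 2.84, 4.62 and 4.26 CPM. The soft-to-soft library 2 stood lowest, at 38 counts. LIF was at 124.5, 98.6 and 130.4 CPM in soft-to-soft, while LPA-to-soft held 128.7, 93.3 and 111.9 CPM. LPA-to-FAKi held 107.1, 112.1 and 105.5 CPM of LIF, and stiff-to-soft 112.5, 126.2 and 113.7 CPM. Every pair of conditions overlapped for CSF3. For LIF every LPA-to-FAKi library lay below every stiff-to-soft library, as for 3.64% of all genes in that direction, a pair that was not tested, and the other pairs overlapped. Within a replicate number LIF spanned at most 1.35-fold.

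For stiff conditioning set against soft, the contrast used in choosing the genes, log2 fold changes with the replicate block were 1.32 ± 0.126 (SE) for CSF2, 0.68 ± 0.125 for CSF1, 0.79 ± 0.498 for CSF3, -0.63 ± 0.094 for KITLG and 0.004 ± 0.114 for LIF. Groups did not overlap for 2 of the 5 genes, where 4.35% of all genes tested had groups that did not overlap. The whole fit called 0.583% of genes at an adjusted p under 0.05 with the block and 0 without it. Nothing is read from these counts for the 5 genes. CSF3 moved in both directions among the numbers, at -0.22, 2.89 and 0.31, and its value rests on soft-to-soft replicate 2: without that library it was 0.21 with the block. Without soft-to-soft replicates 1 and 2 the values with the block were 1.10 for CSF2, 0.53 for CSF1, 0.53 for CSF3, -0.53 for KITLG and -0.18 for LIF. Without the block, leaving them out took CSF1 from 0.71 to 0.11, which sets stiff-to-soft libraries of all 3 numbers against soft-to-soft number 3.

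Inhibiting FAK at replating after LPA, set against LPA-to-soft, shared no library with that comparison and gives the difference with the inhibitor in LPA-conditioned cells. No condition had the inhibitor without LPA conditioning. An effect particular to the state left by LPA and a general effect of the inhibitor therefore cannot be told apart. CSF2 was higher in LPA-to-FAKi than in LPA-to-soft in 3 of 3 numbers, by 0.78, 0.71 and 0.38 on the log2 scale, where 45.1% of all genes tested kept 1 direction in the 3 numbers. The fitted difference was 0.64 ± 0.123 with the block, a 1.55-fold difference (95% confidence interval 0.36 to 0.91 on the log2 scale), which did not pass (edgeR adjusted p = 0.0752). Without the block it was 0.66, with a 95% confidence interval from -0.40 to 1.71 (adjusted p = 0.852). The call was reached by DESeq2 with the block (adjusted p = 0.000442), by edgeR with the block when soft-to-soft replicates 1 and 2 were left out (adjusted p = 0.0427), and on leaving out soft-to-soft replicate 2 (0.032) or LPA-to-FAKi replicate 3 (0.0247), with a range of 0.0247 to 0.316 over the 12 libraries left out in turn. CSF1 was lower in 3 of 3 numbers (-0.40, -0.10 and -0.05; fitted -0.18 ± 0.124, adjusted p = 0.415). KITLG (-0.10 ± 0.093), LIF (-0.03 ± 0.114) and CSF3 (-0.55 ± 0.491) each moved both ways among the numbers and did not pass, with intervals from -0.31 to 0.10, from -0.28 to 0.22 and from -1.63 to 0.53. With edgeR, 0 genes of 15437 were called in this comparison with or without the block, although 3439 and 838 had an unadjusted p under 0.05; DESeq2 with the block called 1231.

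Between LPA-to-FAKi and soft-to-soft, a comparison that shares its soft-to-soft libraries with the contrast used to choose the genes, CSF2 was called. It was higher in 3 of 3 numbers, by 1.39, 1.32 and 0.74, as 35.1% of genes kept 1 direction, though 1 LPA-to-FAKi library (21.4 CPM) lay below the highest soft-to-soft library (23.5 CPM). It rose by 1.16 ± 0.126 with the block, a 2.24-fold difference (edgeR adjusted p = 0.0111), the smallest p of all 15437 genes. The soft-to-soft values also entered the choice of CSF2, CSF1 and KITLG, so neither this call nor its rank is independent of that choice. The background was 0.564% of genes called, and 0.155% called higher, with the block. Without the block the value was 1.21 ± 0.487 and was not called (adjusted p = 0.999), and 0 genes were. The call was also lost without soft-to-soft replicate 3 (1.27, edgeR adjusted p = 0.0536). With soft-to-soft replicates 1 and 2 left out, and so 1 soft-to-soft library, the value with the block was 0.94, and no call is given. KITLG was lower in 3 of 3 numbers, by -0.57, -0.40 and -0.42, with groups that did not overlap, as in 3.12% of genes in that direction. Its fitted change was -0.46 ± 0.093 with the block (edgeR adjusted p = 0.0614), which DESeq2 (0.000985) and limma voom (0.0491) with the block placed below 0.05. With edgeR and the block it was not called as any of the 12 libraries was left out in turn (adjusted p from 0.0563 to 0.253). Without soft-to-soft replicates 1 and 2 its value with the block was -0.35. CSF1 (0.14 ± 0.125), LIF (-0.11 ± 0.115) and CSF3 (-0.19 ± 0.498) did not pass. The leukocyte list summed to 23.0 to 48.6 CPM in LPA-to-FAKi and 19.0 to 21.8 CPM in soft-to-soft, without overlap. Of its 10 markers 3 were at 0 counts in all libraries, and CD68 ran from 9.49 to 41.9 CPM over the 12. Epithelial markers summed to 6625 to 11647 and 9986 to 13696 CPM, with overlap. The part of these sums in the values of CSF2 and KITLG was not tested.

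**Figure D2:**
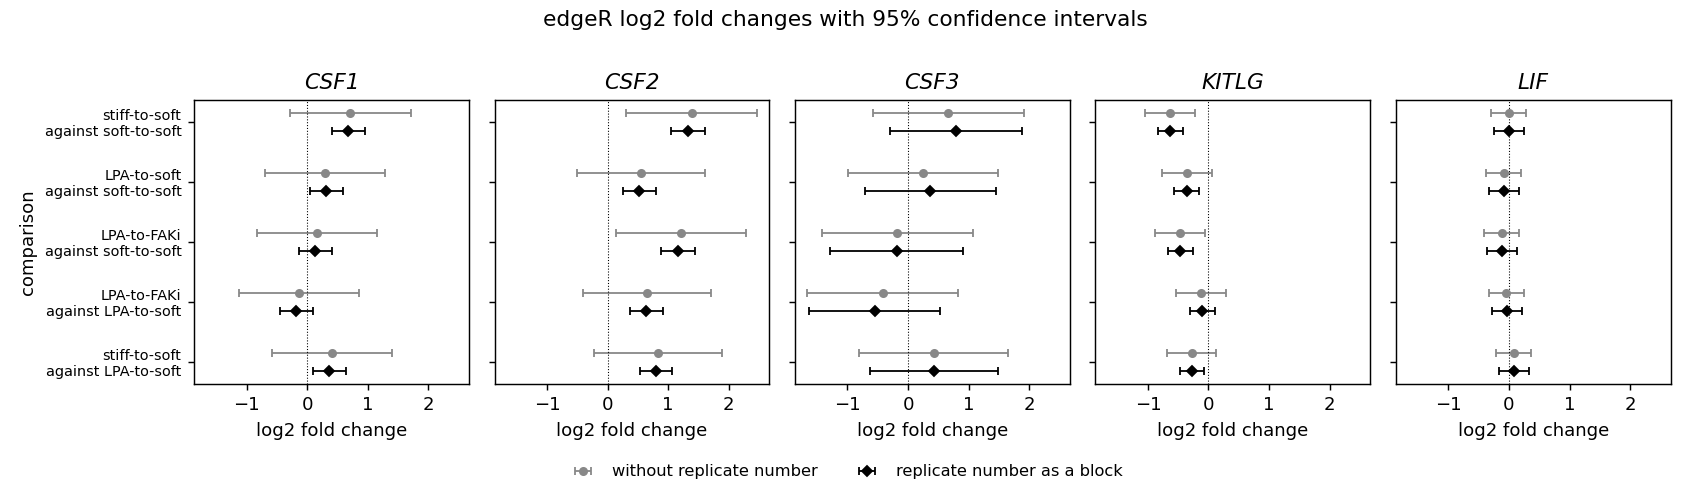
edgeR log2 fold changes (x axis) for 5 comparisons of conditions, with 95% confidence intervals, for each growth factor gene. Grey circles come from the fit without replicate number and black diamonds from the fit with it as a block; for CSF2, CSF1 and KITLG the block narrows the intervals and leaves the points near their place, with CSF2 at 1.16 in LPA-to-FAKi against soft-to-soft.

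LPA conditioning alone, tested as LPA-to-soft against the same soft-to-soft libraries, gave 0 called genes by edgeR with or without the block (1231 and 211 at an unadjusted p under 0.05). CSF2 was higher in 3 of 3 numbers, by 0.61, 0.62 and 0.36, where 34.1% of genes kept 1 direction (fitted 0.52 ± 0.125 with the block, adjusted p = 0.375). CSF1 was higher in 3 of 3 numbers (0.32 ± 0.125, adjusted p = 0.58) and KITLG lower in 3 of 3 (-0.36 ± 0.093, adjusted p = 0.401). DESeq2 with the block called CSF2 (adjusted p = 0.021) and did not call KITLG (0.0573). Through the soft-to-soft libraries these results too are not independent of the choice of genes. Without soft-to-soft replicates 1 and 2 the values with the block were 0.31 for CSF2, 0.17 for CSF1 and -0.25 for KITLG.

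Stiff and LPA conditioning were then set against each other. CSF2 was higher in stiff-to-soft in 3 of 3 numbers, by 0.57, 0.92 and 0.88, for a fitted difference of 0.80 ± 0.123 with the block, a 1.74-fold difference (edgeR adjusted p = 0.213, rank 3 of 15437 by p). CSF1 was higher by 0.36 ± 0.124 and KITLG lower, at -0.27 ± 0.093, each in 3 of 3 numbers (adjusted p = 0.492 for both), beside 35% of genes that kept 1 direction. The fit with the block called 0.00648% of genes, 1 of them, and the main fit called 0 (215 at an unadjusted p under 0.05). Leaving out LPA-to-FAKi replicate 3 brought CSF2 under the threshold (adjusted p = 0.0498), and DESeq2 with the block gave 7.64e-06. This comparison shares the stiff-to-soft libraries with the one that chose the genes, so it is not independent of that choice.

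By the classes of the design text, edgeR called none of the 5 genes with or without the block. CSF2 averaged 32.5 ± 19.1 CPM over the libraries that learned and 26.4 ± 17.3 CPM over the rest (SD, n = 6), a fitted difference of 0.29 ± 0.290 with the block (edgeR adjusted p = 0.752). LPA-to-FAKi, the second highest condition by its mean, is among the rest. Without soft-to-soft replicates 1 and 2 that value was -0.001 with the block. CSF1 came nearest, at 113.7 ± 45.8 against 84.0 ± 33.8 CPM (0.44 ± 0.114, adjusted p = 0.258, and 0.0265 by DESeq2 with the block), and was 0.38 (adjusted p = 0.233) without those libraries. The classes put stiff-to-soft on one side and soft-to-soft on the other, so the values that chose CSF2, CSF1 and KITLG enter this comparison and it is not independent of that choice. KITLG (-0.28 ± 0.124), CSF3 (0.69 ± 0.346) and LIF (0.02 ± 0.082) did not pass. The fit with the block called 0.00648% of genes and the main fit 0 (446 at an unadjusted p under 0.05).

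CSF1, CSF2 and KITLG also differed between replicate numbers, which played no part in choosing the genes. Mean CSF1 over the 4 conditions was 56.6, 102.5 and 137.4 CPM in numbers 1, 2 and 3 (edgeR adjusted p = 3.70e-05 over the number). CSF2 was 21.4, 46.6 and 20.2 CPM (adjusted p = 2.38e-05), high in number 2 in every condition, and KITLG was 20.0, 14.6 and 17.6 CPM (adjusted p = 0.00270), lowest in number 2. CSF3 (2.64, 2.37 and 3.56 CPM, adjusted p = 0.301) and LIF (118.2, 107.5 and 115.4 CPM, adjusted p = 0.462) did not differ past the threshold. The 3 genes of 5 compare with 52.3% of all genes tested, so the share is near the background. Replicate number held 76.3% of the sum of squares of log2 CPM for CSF1, 49.3% for CSF2, 37.3% for KITLG, 21.2% for CSF3 and 17.4% for LIF, and condition held 18.6%, 47.8%, 56.4%, 26.8% and 12.3%. Over all genes the shares were 47.2% for number and 22.5% for condition. The condition shares of CSF2, CSF1 and KITLG hold the stiff-to-soft and soft-to-soft values that chose these genes. Nothing is therefore read from them beside the share over all genes.

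**Figure D3:**
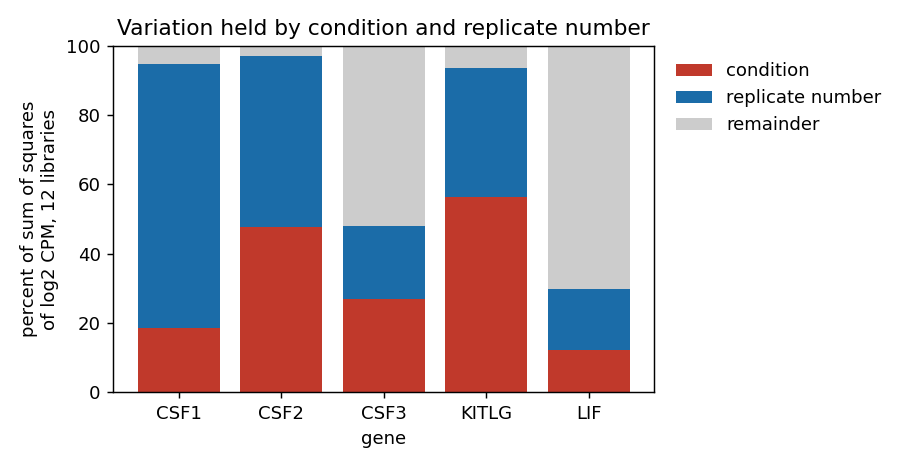
Percent of the sum of squares of log2 CPM over 12 libraries held by condition, replicate number and the remainder, for each growth factor gene, with bars that start at 0 and add to 100. Condition and number together leave 2.87% for CSF2 and 70.3% for LIF. The condition part holds the values that chose CSF2, CSF1 and KITLG.

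CSF2 and KITLG ran in opposite directions between conditions. They were chosen with opposite fold changes between stiff-to-soft and soft-to-soft known, so the sign and much of the size of their correlation follow from that choice. With the mean of each replicate number taken off, their log2 CPM values had a Pearson r of -0.89 and a Spearman rho of -0.87 over the 12 libraries. Without soft-to-soft replicates 1 and 2, the libraries farthest from the CSF2 median, r was -0.78 over 10. With no means taken off r was also -0.89, and between replicate numbers CSF2 was highest and KITLG lowest in number 2. With both number and condition means taken off, r was -0.08, so in the values centred on number the relation lay between the conditions. CSF1 and CSF3 had r = 0.83, and 0.88 with condition means also off. CSF3 was lowest in soft-to-soft replicate 2, at 0.604 CPM, and no r with CSF3 is given without that library. These values describe libraries that share conditions, numbers and scaling, and carry no test.

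**Figure D4:**
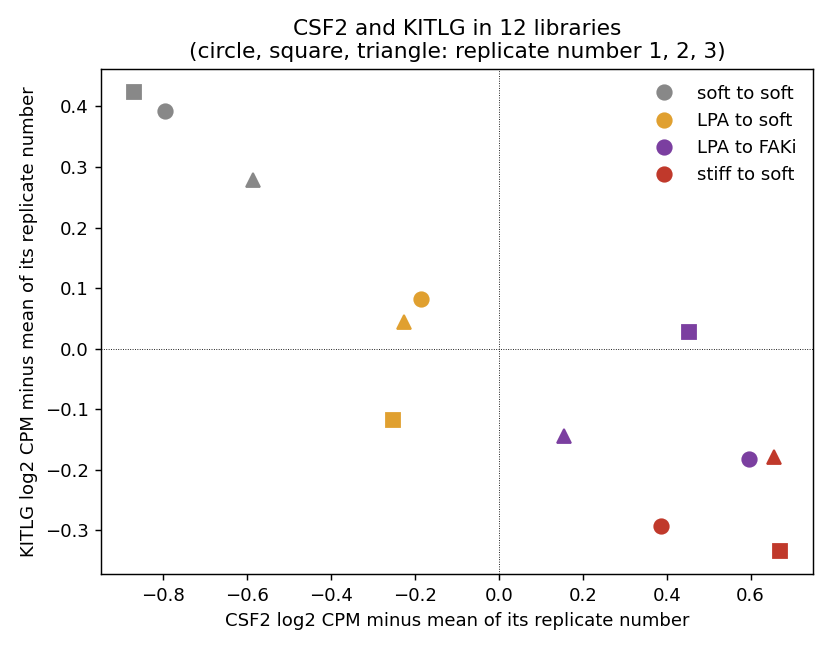
KITLG against CSF2, both as log2 CPM minus the mean of the library's replicate number, in 12 libraries coloured by condition and shaped by number. Soft-to-soft libraries sit at the upper left, LPA-to-soft near the middle and stiff-to-soft at the lower right.

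By the same centred values, among 11705 genes with a mean log2 CPM over 1, the genes most like CSF2 included TTC7A (r = 0.97) and NMB (0.95). Those most like CSF1 were ZNF385C (0.97), PPAP2B (0.97) and CCL28 (0.96), and those most like CSF3 were CCL2 (0.96), CCDC88B (0.96) and TMEM165 (0.96). KITLG was nearest to SOWAHC (0.95), SERPINB13 (0.95) and NRARP (0.95), and LIF to CYB5B (0.97), NAPB (0.91) and LMX1B (0.90). Without centring on the number, 0 of the 3 nearest genes were shared for CSF1 and for CSF2.

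The receptors split into those at or near 0 and those that were measured. CSF2RA, the ligand-binding chain for GM-CSF, had 0 counts in all 12 libraries. CSF3R had at most 2 counts and CSF2RB, the shared beta chain, at most 16, and none of the 3 was tested. A count of 0 depends on how reads were assigned to symbols, so it is not read as absence of the RNA. CSF1R ran from 0.621 to 2.85 CPM and KIT from 0 to 0.549 CPM, with 41 counts at most. The LIF receptor chains were higher, with LIFR from 6.60 to 16.0 CPM and IL6ST from 70.3 to 102.0 CPM. Of the 4 receptors tested, 0 were called by edgeR in any comparison of conditions over the 12 libraries.

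LIFR, which binds LIF itself, was lowest in LPA-to-FAKi. Soft-to-soft libraries held 10.1, 9.57 and 14.5 CPM of LIFR and LPA-to-soft libraries 13.3, 11.9 and 16.0 CPM. The LPA-to-FAKi libraries held 6.60, 7.77 and 8.96 CPM and the stiff-to-soft libraries 8.18, 9.60 and 15.6 CPM. Every LPA-to-FAKi library lay below every LPA-to-soft library, as for 5.4% of all genes in that direction. The difference was -0.82 ± 0.129 with the block (edgeR adjusted p = 0.0752), under the threshold with DESeq2 (6.62e-06) and limma voom (0.0495) with the block. With edgeR and the block it was also under the threshold when soft-to-soft replicates 1 and 2 were both dropped (a value of -0.82 with adjusted p = 0.0375) and when replicate 2 of these was dropped alone (0.0297), and with each of the other 11 libraries left out in turn it was not called. CSF1R was higher by 0.51 ± 0.314 (adjusted p = 0.358), a value that fell to 0.02 without LPA-to-FAKi replicate 1.

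**Figure D5:**
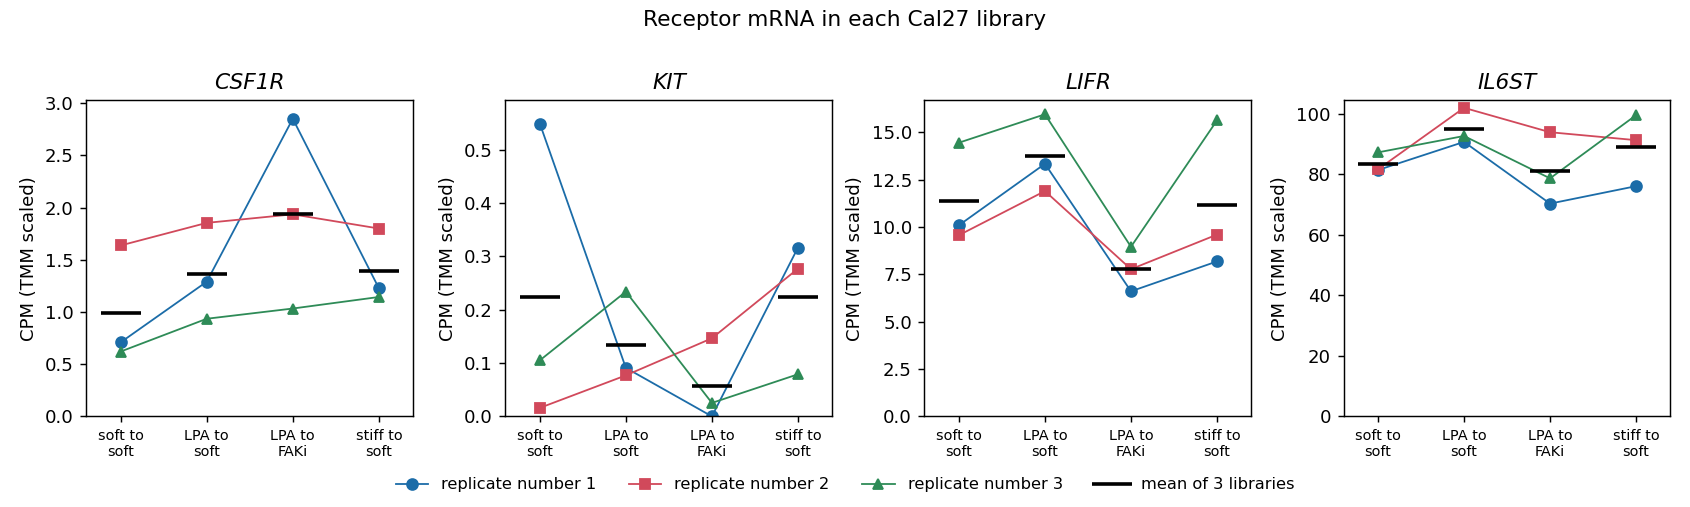
CPM (TMM scaled, axis from 0) of the 4 receptor genes tested, in each library by condition, with lines joining libraries of the same replicate number and black dashes for means of 3. The 3 LPA-to-FAKi values of LIFR, 6.60 to 8.96 CPM, lie below the 3 LPA-to-soft values.

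Other genes of the cytokine pathways gave few calls. In LPA-to-FAKi against LPA-to-soft, the inflammatory cytokines had 11 of 13 members tested below 0 and 2 above, with a median of -0.59 beside -0.004 over all genes, and 0 were called, while CSF2 stood above 0. The related ligands had 4 of 7 above 0 and a median of 0.12, with 0 called. JAK-STAT signalling genes had 7 of 17 above 0 and a median of -0.03, with 0 called, and the proteins that bind AU-rich mRNA, which control the decay of cytokine transcripts including CSF2, had 5 of 10 above 0 and a median of 0.02, with 0 called. Shedding proteases, the class that releases membrane-bound factors such as KITLG and CSF1, had 1 of 6 above 0 and a median of -0.14, with 0 called.

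When stiff conditioning was compared with soft, 1 of 24 transcription factors of cytokine genes was called with the block, beside 0.583% of all genes. It was ETS1, a factor known to act on the CSF2 promoter, which rose by 0.74 ± 0.109 (edgeR adjusted p = 0.0185). Of 9 epithelial markers, beside the same background, 4 fell with the block: KRT14 (-1.68), KRT17 (-0.75), DSG3 (-0.66) and PERP (-0.32), with adjusted p from 0.004 to 0.048, and 0 rose. CD34, on the leukocyte list, rose by 1.90 (adjusted p = 0.0423). None of these 6 was called by edgeR without the block. Leaving out soft-to-soft replicates 1 and 2 left 1 soft-to-soft library, so no call is given for that setting. Its values with the block were 0.61 for ETS1, -1.14 for KRT14 and -0.71 for KRT17. They were -0.63 for DSG3, -0.30 for PERP and 1.31 for CD34. As each of the 12 libraries was left out in turn, DSG3 was called 12 times, KRT17 9, ETS1 7, KRT14 5, CD34 3 and PERP 1. Epithelial markers summed to 9986 to 13696 CPM in soft-to-soft and 5979 to 10480 CPM in stiff-to-soft, and the leukocyte list to 19.0 to 21.8 and 23.0 to 25.7 CPM; their part in the values of CSF2, CSF1 and KITLG was not tested. Across replicate numbers 12 of 13 inflammatory cytokines, 19 of 24 transcription factors, 12 of 17 JAK-STAT genes, 4 of 7 related ligands and 2 of 4 receptors were called, beside the 52.3% of all genes.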

How the data were processed

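RNA from 12 Cal27 libraries, 3 for each of 4 conditions, was analysed from the whole-number read counts per gene symbol that the authors deposited. The deposited normalized table, in log2 units, entered no test. Per the submitters' processing notes, cutadapt, FastQC, STAR, HTSeq and DESeq2 were used, on the build hg19. Versions, the strand setting and the annotation were not stated. Symbols turned into dates numbered 28 and held 0.178% of counts.

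Tests used edgeR 4.0.16 under R 4.3.3 on the counts (quasi-likelihood F test, TMM scaling, low-count filter by condition, Benjamini-Hochberg adjustment over 15437 genes, threshold 0.05), with all 12 libraries sharing the estimate of spread. The fit was checked on simulated data. Log2 CPM used a prior count of 2. Alternatives were the replicate block, DESeq2 1.42.0, voom of limma 3.58.1, RLE scaling, no filter, halved counts of 10 libraries and left-out libraries. The labels number the replicates without saying what a number means. After condition means were taken off, same-numbered libraries correlated at 0.312 to 0.659 (18 pairs). Libraries that differed in both condition and number correlated at -0.517 to 0.0372 (36 pairs). Taking off means of 3 libraries itself lowers these latter values when same-numbered libraries correlate. By a threshold of 0.1 the numbers pair the samples.

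The growth factor genes, the other gene lists and the tests were chosen with earlier results of these data known. Named were the 5 genes, their receptors, list genes called in a comparison (at most 4 by adjusted p) and the 3 genes most like each of the 5; called list genes across replicate numbers are given as counts, and some items that this rule names are not reported here. Promoter sequences are from RefSeq (GRCh38.p14), a build other than that of the counts, and no coordinates were converted.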

Additional observations from a re-analysis of the deposited data

Results flagged for a closer look

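CSF1 in the stiff-to-soft library numbered 3, at 182.8 CPM, stood far above the other 3 libraries with that number, which held 119.6 to 125.7 CPM. Its gap to the nearest of them, set against the range of the 4 libraries, passed the 95% limit of Dixon's test. These 4 libraries each had a different condition, and CSF1 was highest after stiff conditioning in all 3 numbers. Its rise after stiff conditioning was also known when the genes were chosen. The flag is therefore not independent of that choice, and the test cannot tell an odd library from a difference between conditions. In all, 25 groups of 4 libraries or more were checked, and chance alone marks about 1 in 20.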

How the results depend on the processing

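Calls depended on the tool as well as on the replicate block. Genes called by edgeR without it were 0 in each of the 6 comparisons, and with it 90 for stiff-to-soft against soft-to-soft, 87 for LPA-to-FAKi against soft-to-soft (1 growth factor gene, CSF2), and 1 each for stiff against LPA conditioning and for learned against not learned. DESeq2 without the block called 4, 2, 5 and 3 genes for stiff-to-soft against soft-to-soft, LPA-to-soft against soft-to-soft, LPA-to-FAKi against LPA-to-soft and LPA-to-FAKi against soft-to-soft. With the block it called 456, 82, 1231 and 704 there, 71 for stiff against LPA conditioning and 129 by class. Growth factor genes among these numbered 1 in each comparison tested but LPA-to-FAKi against soft-to-soft, which had 2. Limma voom with the block called 119 for stiff-to-soft and 176 (2 of the growth factors) for LPA-to-FAKi against soft-to-soft, 37 for LPA-to-FAKi against LPA-to-soft, and 1 each for stiff against LPA conditioning and by class. With the counts of 10 libraries halved and the block, the counts were 99 for stiff-to-soft and 99 (1 of the growth factors) for LPA-to-FAKi against soft-to-soft, and 1 each for stiff against LPA conditioning and by class. Without soft-to-soft replicates 1 and 2, the block gave 202 (1 of the growth factors) for LPA-to-FAKi against LPA-to-soft, 1 for stiff against LPA conditioning and 4 by class. Comparisons against soft-to-soft then rested on 1 soft-to-soft library, and no counts are given for them, so the calls above are not shown to hold there. The cause of these differences was not tested.

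Signs turned for LIF, CSF1, CSF3 and CSF2 in some alternatives. LIF between stiff-to-soft and soft-to-soft was 0.0044 with the block, 0.0060 by DESeq2 with the block and 0.0033 with halved counts and the block. Without soft-to-soft replicates 1 and 2, CSF1 was -0.30 and CSF3 -0.25 for LPA-to-soft against soft-to-soft, and CSF1 was -0.44 for LPA-to-FAKi against soft-to-soft, or -0.013 with the block. CSF2 by class was then -0.00099 with the block.

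Over libraries left out in turn, with and without the block, genes called ran from 0 to 228 for stiff-to-soft against soft-to-soft, 0 to 639 for LPA-to-FAKi against LPA-to-soft, 0 to 307 for LPA-to-FAKi against soft-to-soft, 0 to 3 for stiff against LPA conditioning and 0 to 4 by class, with 0 to 1 growth factor genes in the middle 3 of these. LIF ran from -0.13 to 0.097 for stiff-to-soft and from -0.21 to 0.030 for LPA-to-soft against soft-to-soft, from -0.16 to 0.074 for LPA-to-FAKi and from -0.042 to 0.20 for stiff against LPA conditioning, and from -0.042 to 0.070 by class. CSF3 ran from -0.21 to 0.95 for LPA-to-soft and from -0.86 to 0.32 for LPA-to-FAKi against soft-to-soft, and from -0.11 to 0.67 for stiff against LPA conditioning. CSF1 ran from -0.43 to 0.17 for LPA-to-FAKi against LPA-to-soft and from -0.13 to 0.59 for LPA-to-FAKi against soft-to-soft. KITLG ran from -0.30 to 0.024 for LPA-to-FAKi against LPA-to-soft, and CSF2 by class from -0.055 to 0.71. RLE scaling, no filter and halved counts, each without the block, moved no count past 1.5 times and turned no sign. The low counts of CSF3 limit its precision, with 38 to 467 counts a library.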
